A study of Homo sapiens with 10 samples.

Results

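The HOX clusters of H1975, a human cell line established from a lung adenocarcinoma and bearing mutant EGFR, were described by their acetylation of histone H3 at lysine 27 (H3K27ac), measured by chromatin immunoprecipitation and sequencing. Members were the regions of the deposited annotated count table whose gene symbol was a HOX gene of cluster A, B, C or D or an antisense RNA named after one. The rule gave 22 members of 67387 annotated regions, and of 169637 regions counted in all. Of these, 14 are described below, and every count over members refers to those 14. HOXA held 4 of them, HOXC 5, HOXD 5 and HOXB 0, and they were assigned to 11 genes, 10 of them protein-coding of the 39 protein-coding HOX genes in RefSeq. Every counted region was 502 bp wide, so levels were comparable between regions without a length correction.

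Each of the 3 groups had 3 libraries, described in the design text as biological triplicates of this single line. DMSO cells were kept without drug for 21 days and then in DMSO for 3 days. Osimertinib DTP (drug-tolerant persister) cells were held for 24 days in osimertinib, an inhibitor of mutant EGFR, at 500 nM. Osimertinib DTP + AZD5153 cells received osimertinib at 500 nM for 21 days and then AZD5153, an inhibitor of the BET bromodomain proteins that read acetylated histones, at 150 nM for 3 days, and the labels do not say whether osimertinib was continued. A pooled input library of chromatin without immunoprecipitation was the background measure.

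HOX genes encode homeodomain transcription factors that give cells their position along the body axis. They sit in 4 clusters in which gene order follows the order of use, from the anterior genes with low paralog numbers to the posterior genes with high ones, and the Polycomb and Trithorax proteins hold each gene silent or active in a cell type. H3K27ac marks active promoters and enhancers and cannot coexist with the Polycomb mark on the same lysine, and the adult lung is known for use of anterior and central HOXA and HOXB genes.

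Total counts over all regions ran from 6263443 to 10463351 per library, and the input had 1870885. Osimertinib DTP + AZD5153 replicate 3 stood apart: it had the lowest total, no read in 9139 regions, and Spearman correlations across regions of 0.430 and 0.354 with the other libraries of its group, which correlated with each other at 0.890. Regions within 1 kb of a transcription start site (TSS) held 66.7% of its annotated counts and 59.8% in osimertinib DTP replicate 2, against 40.3% to 45.9% in the other 7 libraries. Of 12 lung adenocarcinoma epithelial markers 11 had a region at their promoter, the surfactant gene SFTPC being the one without. Of 10 markers of blood, endothelial and fibroblast cells 4 had one (CDH5, COL1A1, COL1A2 and PDGFRB), while PTPRC, CD3E, SPI1, PECAM1, VWF and DCN had none.

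Sequences of 4 gene starts are shown because their base composition differed and because acetylated regions lay on or beside them. Each is the 250 bases upstream of a start in RefSeq on GRCh38.p14, written in the direction of the gene, with CG dinucleotides in capitals. The HOXA3 start at chr7:27150951-27151200 (minus strand) overlapped the region assigned to HOXA6, the HOXA10 start at chr7:27174321-27174570 (minus strand) lay 608 bp from the HOXA10 region, the HOXD4 start at chr2:176151300-176151549 (plus strand) lay 56 bp from a HOXD4 region, and the start of the noncoding RNA HAGLR at chr2:176178130-176178379 (minus strand) lay 25 bp from the HAGLR region.
HOXA3: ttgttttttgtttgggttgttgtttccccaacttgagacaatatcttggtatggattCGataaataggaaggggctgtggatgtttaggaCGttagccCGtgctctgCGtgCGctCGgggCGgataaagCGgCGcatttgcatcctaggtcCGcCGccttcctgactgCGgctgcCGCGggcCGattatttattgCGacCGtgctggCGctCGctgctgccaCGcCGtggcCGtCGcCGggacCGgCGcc
HOXA10: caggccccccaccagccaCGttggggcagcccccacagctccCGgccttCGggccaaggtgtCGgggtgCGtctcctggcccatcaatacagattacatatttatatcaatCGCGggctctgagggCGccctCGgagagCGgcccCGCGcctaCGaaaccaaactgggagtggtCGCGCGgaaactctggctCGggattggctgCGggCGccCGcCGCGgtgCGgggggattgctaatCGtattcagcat
HOXD4: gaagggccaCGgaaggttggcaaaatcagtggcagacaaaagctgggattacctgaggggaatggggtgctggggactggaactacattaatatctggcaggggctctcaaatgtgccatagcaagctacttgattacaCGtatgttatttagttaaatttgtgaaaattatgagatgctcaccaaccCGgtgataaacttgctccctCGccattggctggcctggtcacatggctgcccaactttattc
HAGLR: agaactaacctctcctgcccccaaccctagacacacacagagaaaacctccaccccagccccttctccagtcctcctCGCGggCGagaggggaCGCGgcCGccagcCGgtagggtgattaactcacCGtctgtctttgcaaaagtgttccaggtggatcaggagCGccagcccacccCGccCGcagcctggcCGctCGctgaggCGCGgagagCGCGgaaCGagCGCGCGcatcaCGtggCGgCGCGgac
They held 26, 24, 4 and 25 CG dinucleotides, in that order, beside a median of 11 over 35116 promoters, so that the HOXD4 start was poor in CG and the other 3 were rich. The letters TGATNNAT, TGANTCA (which reads the same on both strands), CATTCC and TATAAA were searched on both strands, and matches to the first 2 can share bases. HOXD4 held CATTCC on its minus strand, HOXA10 held TATAAA on its minus strand, and no other match was found in the 4 windows. Of all promoters 6.5% held TGATNNAT, 6.6% TGANTCA, 11.9% CATTCC and 10.7% TATAAA.

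HOX clusters also hold microRNA genes that repress HOX transcripts. The mature strands of MIR196A2 in HOXC (chr12:53991762-53991783, plus strand) and MIR196B in HOXA (chr7:27169528-27169549, minus strand) are shown because they carry the same seed, bases 2 to 8, here in capitals.
hsa-miR-196a-5p: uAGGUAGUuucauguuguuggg
hsa-miR-196b-5p: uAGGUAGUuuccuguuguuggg
No annotated region was assigned to either gene, and the nearest counted regions lay 1941 bp from the first strand and 2083 bp from the second.

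Counted regions were spread unevenly over the 4 clusters. From the first to the last HOX gene, HOXC (chr12:53938831-54056030) held 22 counted regions, or 18.8 per 100 kb, and HOXA, taken from HOXA2 to HOXA13 (chr7:27100354-27200091), held 17, or 17.1 per 100 kb. HOXD (chr2:176087487-176190907) held 11, or 10.6 per 100 kb. HOXB (chr17:48528526-48728750), the widest span at 200.2 kb with 10 genes, held 3, or 1.5 per 100 kb, none of them in the annotated table. The HOXB regions were close to bare: DMSO libraries had 33, 38 and 32 counts summed over them, osimertinib DTP libraries 25, 20 and 19, and osimertinib DTP + AZD5153 libraries 12, 13 and 35. The lists of peaks called by the authors held 0 to 1 peak in the HOXB span per DMSO library, 0 per osimertinib DTP library and 0 to 2 per osimertinib DTP + AZD5153 library. The highest HOXB region, chr17:48585700-48586201 inside HOXB3, an anterior gene, had 1.31 to 3.61 CPM (counts scaled to library size by TMM) in DMSO and osimertinib DTP and was not called in any comparison. The densities above come from the same set of regions for all groups, with osimertinib DTP + AZD5153 replicate 3 included. Its peak list held 18 peaks in HOXC, 13 in HOXA and 9 in HOXD, against 3 to 4, 4 to 6 and 3 to 5 per DMSO library. Of the 40 counted regions in these spans that were no members, 29 were under 3 CPM in each of the other 8 libraries.

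**Figure D1:**
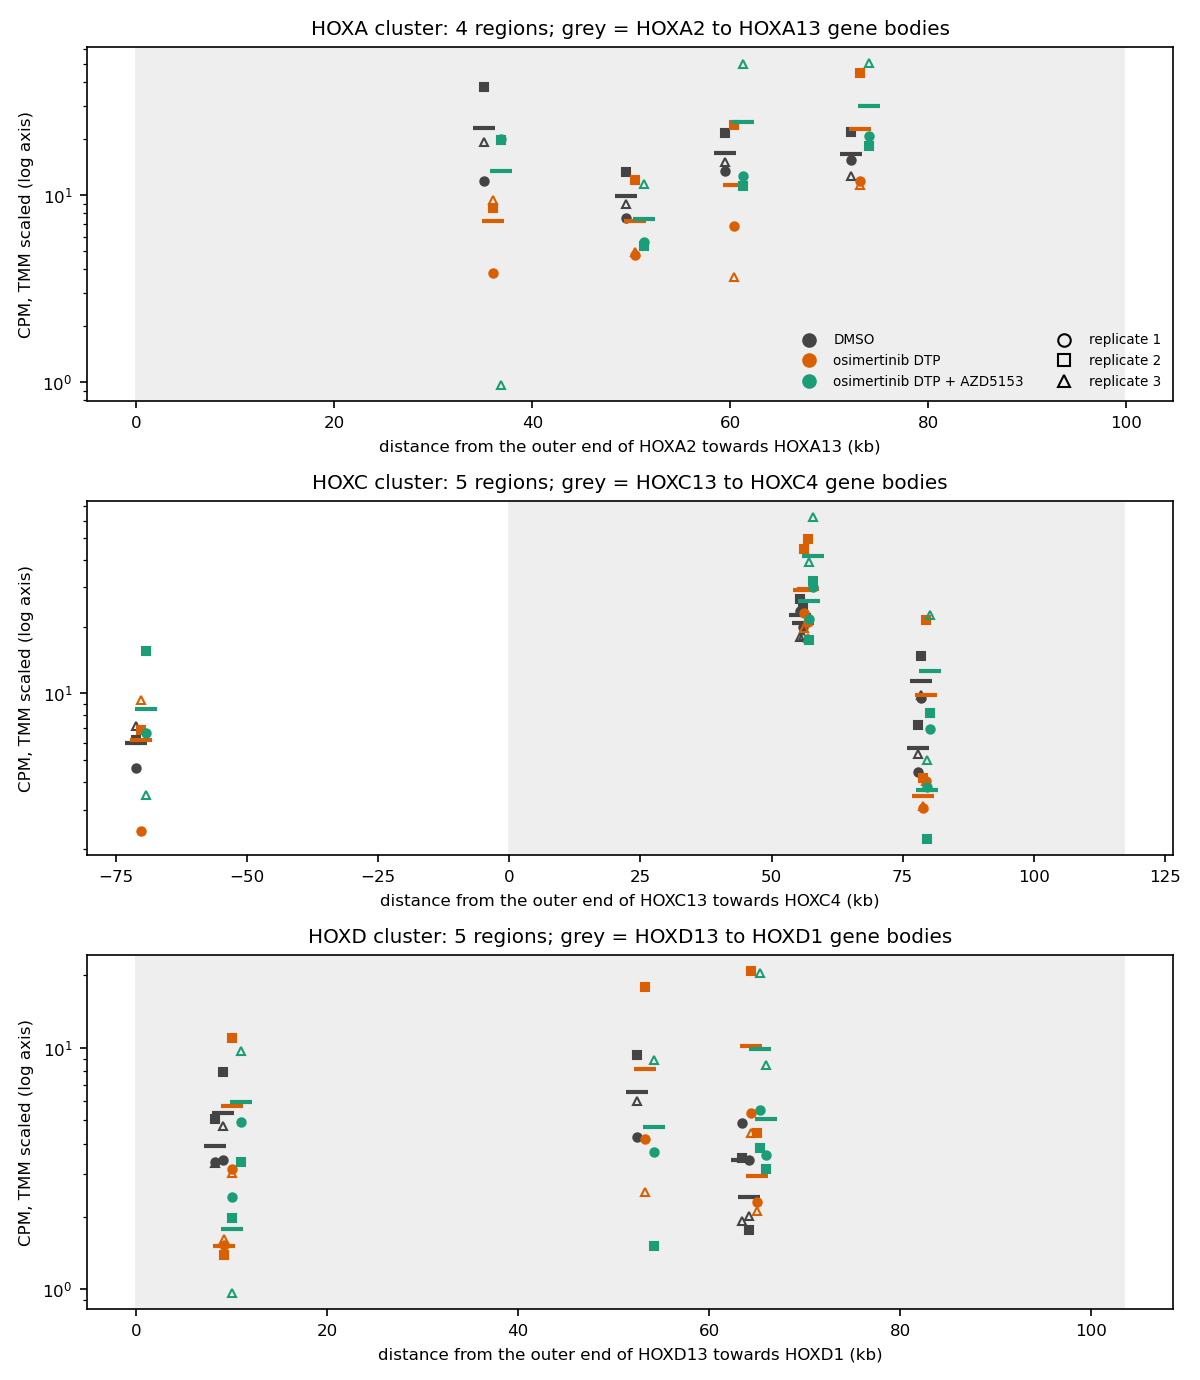
H3K27ac level (CPM, log axis) of the 14 members against distance in kb along HOXA, HOXC and HOXD, with 1 point per library coloured by group, a bar at each group mean, and the gene span in grey. The HOXC13 region lies outside the grey span, and the highest point, 62.2 CPM, is in HOXC.

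Member levels ran from 0.966 to 62.2 CPM. Input counts of members ran from 4 to 30 with a median of 13.5, above the median of 10 over all regions, and HOXA3 and HOXA7 (30 and 25 input counts) exceeded the 95th percentile of 23. Beside annotated regions of the same class, the mean level over the 9 libraries put HOXC9 (30.5 CPM) above 87.4% of the 24296 regions within 1 kb of a TSS, HOXC6 (26.0 CPM) above 82.0% and HOXA10 (23.0 CPM) above 77.5%. HOXD4 #2 (3.48 CPM) was above 3.5% of that class and HOXC5 #1 (4.27 CPM) above 8.5%. Away from a TSS, HOXA3 (14.5 CPM) was above 84.1% of the 21266 intronic regions, HOXC13 (6.90 CPM) above 53.9% and HOXD-AS2 (6.47 CPM) above 50.5%. Among members near a TSS, the highest levels were thus those of HOXC9, HOXC6 and HOXA10.

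The question of the first comparison is how H3K27ac differed between osimertinib DTP and DMSO cells. No HOX member described here passed the test in the fit of all 9 libraries, and the largest differences were at HOXA3 (lower), HOXD12 #1 (lower) and HOXD4 #1 (higher). Of the 14 members, all of which passed the filter on low counts, 0 were lower and 0 higher, where 5.13% and 5.58% of all 157919 regions tested were lower and higher and 10.7% were called in either direction (edgeR quasi-likelihood test, Benjamini-Hochberg adjusted p under 0.05). At an unadjusted p under 0.05, 2 members were lower (HOXA3 and HOXD12 #1) and 1 higher (HOXD4 #1), and DESeq2 called 0 lower and 0 higher. Among all 157919 regions tested, 40906 were under that p in either direction, and DESeq2 called 9.76% lower and 7.91% higher. In bulk chromatin, a smaller share of cells carrying the mark and less of the mark per cell cannot be told apart.

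Without osimertinib DTP + AZD5153 replicate 3, the library that stood apart, the same 3 members were called: 2 lower (HOXA3 and HOXD12 #1) and 1 higher (HOXD4 #1), while 12.7% and 14.2% of all regions were, or 26.8% in either direction. Leaving out any of the other 8 libraries gave 0 calls among the members.

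The median log2 fold change over the 14 members was 0.06, beside 0.15 over all regions tested. It was -0.51 for HOXA, 0.05 for HOXC and 0.28 for HOXD. By the number of the assigned gene, it was -0.22 for the 7 members of central genes (paralogs 4 to 8) and 0.08 for the 5 of posterior genes (9 to 13). The assigned gene was not always the nearest. The HOXA6 region lay in HOXA3, and the HOXA7 and HOXC6 regions were nearest to HOXA9 and HOXC10. Both regions assigned to HOXD12 were nearest to HOXD13, 452 and 1329 bp away. No test of a difference between clusters was made. In 3 members every osimertinib DTP library lay below every DMSO library (HOXA3, HOXC5 #1 and HOXD12 #1), and in 0 members above, where 18.9% and 20.2% of all regions tested did so.

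**Figure D2:**
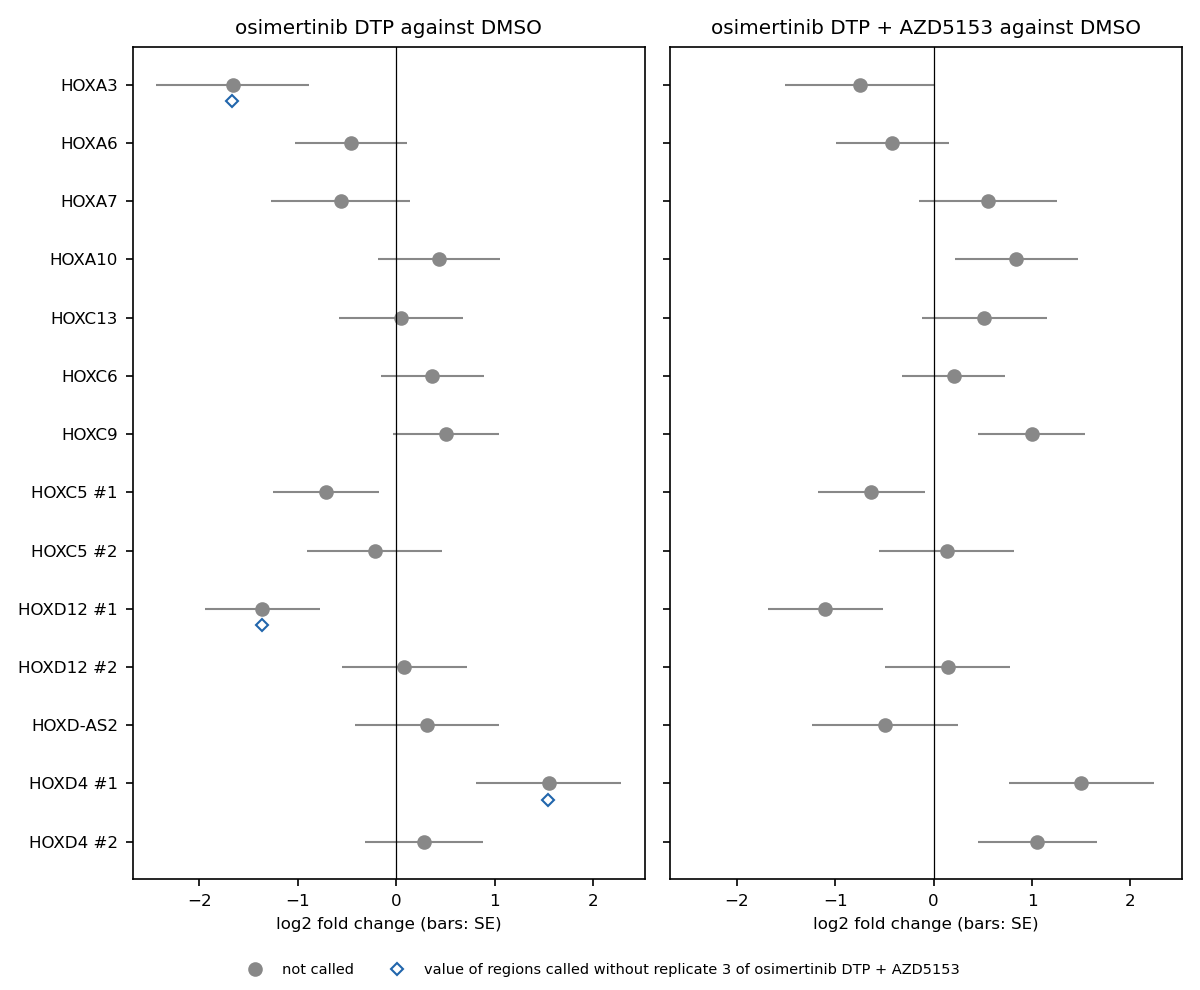
Log2 fold change (edgeR, bars are the standard error) of each member for osimertinib DTP against DMSO and for osimertinib DTP + AZD5153 against DMSO, with open diamonds for regions called without osimertinib DTP + AZD5153 replicate 3; regions of a gene are numbered in coordinate order. The lowest value in osimertinib DTP is at HOXA3, with -1.66, and the highest is at HOXD4 #1, with 1.55.

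HOXA was described by the members at HOXA3, HOXA6, HOXA7 and HOXA10. HOXA3 (chr7:27136090-27136591), an intronic region of an anterior gene that patterns pharyngeal structures, had 11.9, 37.7 and 19.1 CPM in DMSO libraries, 3.82, 8.49 and 9.37 in those of osimertinib DTP, and 19.9, 19.5 and 0.966 with osimertinib DTP + AZD5153. All osimertinib DTP libraries lay below DMSO, and the third group held both a level within the DMSO range and, in replicate 3, the lowest of the 9. The osimertinib DTP difference was -1.66 ± 0.78 (edgeR adjusted p = 0.186, and 0.0115 without osimertinib DTP + AZD5153 replicate 3).

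HOXA6 (chr7:27150498-27150999) lay over the HOXA3 start shown above and the antisense RNA HOXA-AS3, and had 7.53, 13.2 and 8.95 CPM in DMSO libraries, 4.78, 12 and 4.93 in those of osimertinib DTP, and 5.61, 5.35 and 11.4 with osimertinib DTP + AZD5153. The region assigned to HOXA7, a central gene (chr7:27160458-27160959), was in the class downstream of a gene and had 13.5, 21.5 and 15.0 CPM, then 6.79, 23.5 and 3.63, then 12.6, 11.2 and 49.9. HOXA10 (chr7:27173212-27173713), a posterior gene of the uterus and limb, had 15.4, 21.8 and 12.7 CPM, then 11.9, 44.7 and 11.3, then 20.6, 18.3 and 50.6. HOXA6 was lower in osimertinib DTP than in DMSO in each of the 3 same-numbered pairs of libraries, with -0.50 ± 0.53 when the number was a block (edgeR adjusted p = 0.603). In these 3 regions the groups overlapped, and osimertinib DTP replicate 2 and osimertinib DTP + AZD5153 replicate 3 were the highest libraries of their groups.

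That pattern held at all 8 members within 1 kb of a TSS (HOXA6, HOXA10, HOXC6, HOXC9, HOXC5 #1 and #2, HOXD4 #1 and #2): osimertinib DTP replicate 2 was the highest of its group in 8 of 8 and osimertinib DTP + AZD5153 replicate 3 in 8 of 8, the libraries with the largest share of counts near a TSS. At the other 6 members replicate 3 was the highest of its group in 3 and the lowest in 3. The part of promoter share in the group differences was not tested. Among the 40 counted regions in the 4 gene spans given above that were no members, osimertinib DTP + AZD5153 replicate 3 was the highest of the 9 libraries in 32, and 29 of the 40 were under 3 CPM in each of the other 8 libraries.

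HOXC was led by an adjacent pair of regions in HOXC-AS2, an antisense RNA of the cluster. The HOXC6 region (chr12:53994820-53995321) had 23.4, 26.5 and 17.9 CPM in DMSO libraries, 23.1, 44.8 and 19.7 in those of osimertinib DTP, and 21.7, 17.5 and 39.0 with osimertinib DTP + AZD5153. This region, assigned to HOXC6, a central gene, thus kept overlapping levels in the 3 groups, and its nearest HOX gene was HOXC10, 4541 bp away. The HOXC9 region (chr12:53995519-53996020), assigned to a posterior gene of the thoracic axis, had 20.0, 24.2 and 18.1 CPM, then 21.0, 49.5 and 17.8, then 30.1, 32.0 and 62.2. Every osimertinib DTP + AZD5153 library was above every DMSO library there. The differences from DMSO did not pass the test, with 0.50 ± 0.54 for osimertinib DTP and 1.00 ± 0.54 for osimertinib DTP + AZD5153 (edgeR adjusted p = 0.619 and 0.218).

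HOXC5 #1 (chr12:54017425-54017926), at a central gene, had 4.44, 7.23 and 5.33 CPM in DMSO libraries, 3.06, 4.17 and 3.12 in those of osimertinib DTP, and 3.81, 2.21 and 5.03 with osimertinib DTP + AZD5153. Osimertinib DTP libraries were all below DMSO, with -0.72 ± 0.54 (edgeR adjusted p = 0.448). HOXC5 #2 (chr12:54017958-54018459) had 9.52, 14.8 and 9.86 CPM, then 4.02, 21.4 and 4.03, then 6.91, 8.14 and 22.6, and all groups overlapped. The region assigned to HOXC13, a posterior gene of hair and nail, lay 70023 bp from that gene inside the noncoding LOC105378250 (chr12:53868307-53868808) and had 4.63, 6.20 and 7.14 CPM, then 2.39, 6.82 and 9.37, then 6.61, 15.5 and 3.48, also with overlap.

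HOXD members were weaker. HOXD12 #1 (chr2:176096396-176096897), 2 to 3 kb upstream of a posterior gene of the limb, had 3.36, 5.06 and 3.32 CPM in DMSO libraries, 1.53, 1.39 and 1.61 in those of osimertinib DTP, and 2.40, 1.98 and 0.966 with osimertinib DTP + AZD5153. Both treated groups lay below DMSO in every library, with -1.36 ± 0.58 for osimertinib DTP and -1.10 ± 0.58 for osimertinib DTP + AZD5153 (edgeR adjusted p = 0.144 and 0.204, and 0.0355 for the former without osimertinib DTP + AZD5153 replicate 3). HOXD12 #2 (chr2:176097273-176097774) had 3.45, 7.95 and 4.73 CPM, then 3.15, 11 and 3.02, then 4.91, 3.37 and 9.66. The HOXD-AS2 region (chr2:176140527-176141028), assigned to an antisense RNA of the cluster, had 4.26, 9.29 and 6.03 CPM, then 4.21, 17.8 and 2.52, then 3.71, 1.51 and 8.89, and in both regions the groups overlapped.

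HOXD4 #1 (chr2:176151605-176152106) beside the CG-poor start shown above, a central gene of the hindbrain and neck vertebrae, had 4.90, 3.51 and 1.91 CPM in DMSO libraries, 5.35, 20.7 and 4.43 in those of osimertinib DTP, and 5.51, 3.84 and 20.3 with osimertinib DTP + AZD5153. A single library in each treated group (replicate 2 of osimertinib DTP, replicate 3 of osimertinib DTP + AZD5153) was far above the rest, and the others were close to DMSO. The differences were 1.55 ± 0.74 and 1.50 ± 0.74 (edgeR adjusted p = 0.192 and 0.171, and 0.0336 for osimertinib DTP without osimertinib DTP + AZD5153 replicate 3). HOXD4 #2 (chr2:176152286-176152787) had 3.45, 1.76 and 2.01 CPM, then 2.29, 4.45 and 2.11, then 3.61, 3.14 and 8.50.

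Peak lists of the authors were also compared over the members. Peaks overlapped HOXC6, HOXC9, both HOXC5 regions, HOXA6 and HOXA10 in 9 of 9 libraries. HOXD12 #1 had a peak in 3 of 3 DMSO, 0 of 3 osimertinib DTP and 2 of 3 osimertinib DTP + AZD5153 libraries, and HOXD4 #2 in 1, 2 and 3. HOXA3 had one in 3, 2 and 2, missing in osimertinib DTP replicate 1 and osimertinib DTP + AZD5153 replicate 3. Over the HOXA span the lists held 4 to 6 peaks covering 5.18 to 7.04 kb per DMSO library, 3 to 4 peaks covering 1.71 to 3.79 kb per osimertinib DTP library, and 4 to 13 peaks covering 2.94 to 9.27 kb per osimertinib DTP + AZD5153 library. The covered length of HOXA was thus shorter in each osimertinib DTP library than in any DMSO library. In HOXC it was 3.70 to 5.65, 4.12 to 5.92 and 4.15 to 15.8 kb, and in HOXD 1.49 to 1.85, 1.40 to 4.44 and 2.24 to 6.79 kb, in the same order.

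**Figure D3:**
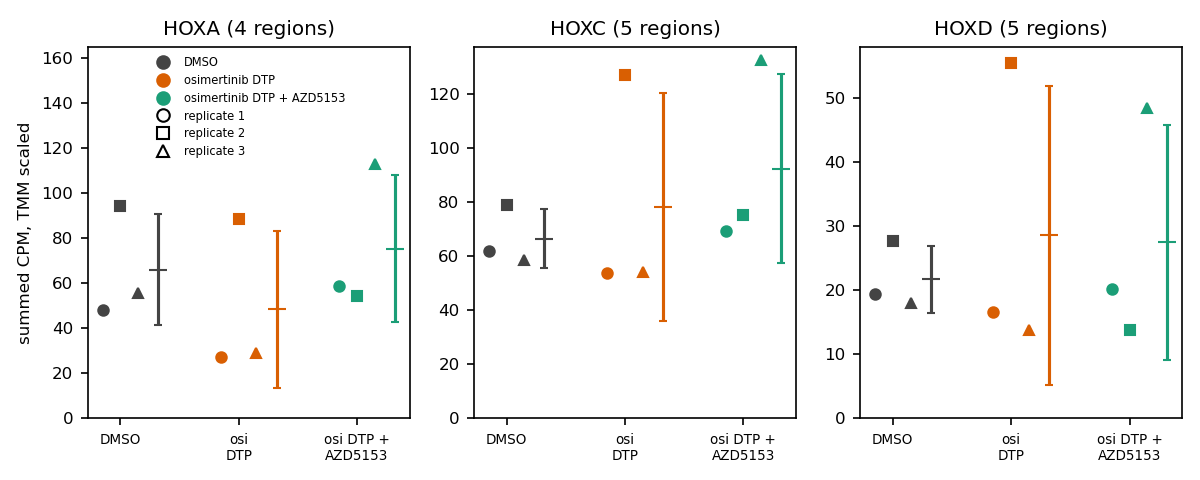
Member CPM summed per library for HOXA (4 regions), HOXC and HOXD (5 regions each), by group, with a bar at each mean and its SD (n = 3). The groups overlap in every panel, and in each treated group a single library is far above the other 2, as is DMSO replicate 2 in the HOXA panel.

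Summed over members, the HOXA level was 48.3, 94.2 and 55.7 CPM for DMSO libraries, 27.2, 88.6 and 29.2 for those of osimertinib DTP, and 58.8, 54.3 and 113 with AZD5153 added. The means were 66.1 ± 24.6, 48.4 ± 34.9 and 75.3 ± 32.6 CPM (mean ± SD, n = 3 each), differences smaller than the SD of the treated groups. Within same-numbered pairs, a comparison chosen after the data were seen, the HOXA sum was lower in osimertinib DTP in 3 of 3, with log2 ratios of -0.83, -0.09 and -0.93 (exact two-sided sign-flip permutation test, p = 0.25, the smallest that 3 pairs allow). HOXC and HOXD were lower in 2 of 3 pairs and higher in the remaining one. HOXC sums were 66.4 ± 11, 78.2 ± 42.1 and 92.3 ± 34.9 CPM and HOXD sums 21.7 ± 5.17, 28.5 ± 23.3 and 27.4 ± 18.4 CPM, again within that SD. Replicate 2 of osimertinib DTP and replicate 3 of osimertinib DTP + AZD5153 had the highest sum of their group in all 3 clusters. DMSO replicate 2 was the highest DMSO library in 11 of 14 members, with a HOXA sum of 94.2 CPM. The other DMSO libraries, at 48.3 and 55.7 CPM in HOXA, lay near the osimertinib DTP mean of 48.4. Without osimertinib DTP replicate 2 the log2 ratio of the osimertinib DTP mean to the DMSO mean went from -0.45 to -1.23 for HOXA, from 0.24 to -0.30 for HOXC and from 0.40 to -0.52 for HOXD.

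The second comparison asks what changed when AZD5153 followed osimertinib. Against osimertinib DTP, 0 of 14 members were called in either direction by edgeR, where 0% of all regions tested were, 0 members had an unadjusted p under 0.05 (the smallest was 0.134), and DESeq2 called 0 members. Over all regions, 7013 had an unadjusted p under 0.05 and DESeq2 called 18 higher and 68 lower. Without osimertinib DTP + AZD5153 replicate 3, edgeR called 0 members, 6 of the 14 log2 fold changes were positive with a median of -0.20 beside -0.17 over all regions, and edgeR called 0.0637% of all regions higher and 0.0587% lower (0.122% in either direction). The median log2 fold change was 0.31 over members, 11 of them positive, and 0.06 over all regions.

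The members with the smallest p in each cluster were HOXA7 and HOXA3, with 1.12 ± 0.71 and 0.91 ± 0.77 (log2, SE), HOXC13 and HOXC9, with 0.47 ± 0.63 and 0.49 ± 0.54, and HOXD-AS2 and HOXD4 #2, with -0.81 ± 0.74 and 0.77 ± 0.60. The edgeR adjusted p was 1 for each of these 6. At HOXA3, given above, replicates 1 and 2 of osimertinib DTP + AZD5153 were above every osimertinib DTP library and replicate 3 was below them all. Without replicate 3 of osimertinib DTP + AZD5153 the values were 0.08 at HOXA7, 0.07 at HOXC9, 0.21 at HOXD4 #2, 0.83 at HOXC13, 1.45 at HOXA3 and -1.62 at HOXD-AS2. In that fit HOXA3 and HOXD-AS2 had an unadjusted p under 0.05 (edgeR unadjusted p = 0.00950 and 0.0243, adjusted p = 0.144 and 0.193), where no member did with all 9 libraries. So did 32444 of all 161758 regions tested in that fit, so 2 of 14 members was not more than their share.

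The third comparison sets osimertinib DTP + AZD5153 against the same DMSO libraries as the first. Here 0 of 14 members were lower and 0 higher, where 9.01% and 9.05% of all regions tested were lower and higher (edgeR, 18.1% in either direction). At an unadjusted p under 0.05, 0 were lower and 0 higher (the smallest p was 0.0572), and DESeq2 called 0 members. Among all 157919 regions tested, 50402 were under that p in either direction, and DESeq2 called 11.9% lower and 12.9% higher. Without osimertinib DTP + AZD5153 replicate 3, 0 members were called, where 17.3% and 18.4% of all regions were lower and higher, or 35.7% in either direction.

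The median log2 fold change was 0.17 over members and 0.23 over all regions, with 0.07 for HOXA, 0.20 for HOXC and 0.14 for HOXD. Without osimertinib DTP + AZD5153 replicate 3 the median over members was -0.30 and that over all regions -0.11. All libraries of the group lay below DMSO in 1 member (HOXD12 #1) and above it in 1 (HOXC9), where 19.0% and 14.4% of all regions did so. HOXA10 had 0.84 ± 0.62 and HOXA3 -0.75 ± 0.76 (edgeR adjusted p = 0.384 and 0.542), and without osimertinib DTP + AZD5153 replicate 3 these were 0.22 and -0.22.

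Regions beside the members, chosen after their values were seen or from a fixed list of other transcripts in or next to the clusters, included regions within 1 kb of a start of HOX noncoding RNAs that rose. The start of HOTAIR, a noncoding RNA of the HOXC cluster known for its link to Polycomb, lay at chr12:53967359-53967860 and had 0.635, 0.723 and 1.21 CPM in DMSO libraries, 3.54, 5.84 and 2.82 in those of osimertinib DTP, and 8.02, 6.28 and 5.99 with osimertinib DTP + AZD5153. Both treated groups were wholly above DMSO. The differences were 2.23 ± 0.59 and 2.97 ± 0.60 (edgeR adjusted p = 0.0235 and 0.00390).

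The region assigned to HAGLR (chr2:176178404-176178905), between HOXD1 and HOXD3, lay in the bodies of HAGLR and its antisense partner HAGLROS, which the assay cannot separate, 25 bp from the CG-rich window shown above, and had 0.816, 1.34 and 1.21 CPM in DMSO libraries, 4.59, 17.3 and 5.84 in those of osimertinib DTP, and 5.11, 10.2 and 13.1 with osimertinib DTP + AZD5153. Again the groups treated with drug were above DMSO in every library, with 3.02 ± 0.67 and 3.06 ± 0.67 (edgeR adjusted p = 0.0105 and 0.00605). Leaving out each library in turn, HOTAIR and HAGLR were called in 4 and 5 of 9 fits for osimertinib DTP and in 9 of 9 for osimertinib DTP + AZD5153. Neither region was high beside the HOXC9 region: the highest library reached 8.02 CPM at HOTAIR and 17.3 CPM at HAGLR. The input had 7 counts at HOTAIR and 12 at HAGLR, or 3.74 and 6.41 CPM of its own total, without TMM. At both regions osimertinib DTP libraries lay on both sides of that input level. Libraries of osimertinib DTP + AZD5153 were all above it at HOTAIR and on both sides of it at HAGLR.

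**Figure D4:**
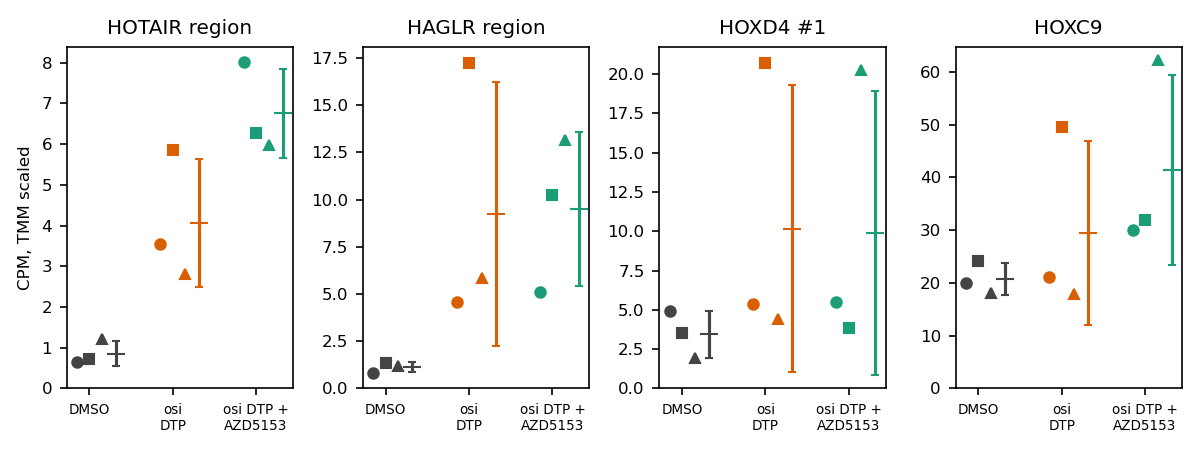
H3K27ac level (CPM) by group at the HOTAIR region, the HAGLR region, HOXD4 #1 and HOXC9, with 1 point per library and a bar at the mean and SD (n = 3). HOTAIR and HAGLR libraries of the treated groups all lie above DMSO, and HOXD4 shows a single high library in each treated group.

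Inside the 4 gene spans, the other regions called against DMSO were those at HOTAIR and HAGLR and a region in HOXA3, where chr7:27137504-27138005 had 2.36, 2.58 and 4.32 CPM in DMSO libraries, 0.574, 0.278 and 0.906 in those of osimertinib DTP, and 0.701, 1.40 and 0.580 with osimertinib DTP + AZD5153. That region, in the same gene as the HOXA3 member, fell by 2.34 ± 0.72 on the log2 scale in osimertinib DTP (edgeR adjusted p = 0.0441, 0.0692 for totals without TMM, and 0.0512 with no filter on low counts). It was called in 2 of 9 fits that each left out a library, with an edgeR adjusted p of up to 0.242. Among the non-member regions tested in osimertinib DTP, 1 of 10 in HOXA was lower, and 1 of 13 in HOXC and 1 of 6 in HOXD were higher. HOXB had 1 tested and 0 called, where 5.58% and 5.13% of all regions were higher and lower. With osimertinib DTP + AZD5153 against DMSO, 1 of the 13 and 1 of the 6 were higher and 0 lower, beside 9.05% and 9.01%.

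Regions of genes that control HOX clusters or act with their proteins were counted against the shares of all regions, 5.58% higher and 5.13% lower in osimertinib DTP and 9.05% and 9.01% with AZD5153. Without osimertinib DTP + AZD5153 replicate 3 the shares were 14.2% and 12.7%, and 18.4% and 17.3%. The same shares apply to the transcripts and markers further below. Regions of 9 of 11 HOX cofactor genes (PBX, MEIS and related proteins that bind DNA beside HOX) numbered 63, of which 0 were higher and 1 lower in osimertinib DTP (0% and 1.59%), with a median log2 fold change of 0.27. The lower one, in TGIF2, a homeodomain repressor (chr20:36585703-36586204), had -2.16 ± 0.55 (edgeR adjusted p = 0.0194). For osimertinib DTP + AZD5153 against DMSO, 0 were higher and 2 lower (0% and 3.17%). These counts were 4 higher and 4 lower, and 6 and 5, without osimertinib DTP + AZD5153 replicate 3.

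Regions of 19 of 21 Polycomb genes numbered 72, of which 4 were higher and 1 lower in osimertinib DTP (5.56% and 1.39%, median 0.36) and 8 and 3 in osimertinib DTP + AZD5153 (11.1% and 4.17%, median 0.39). They were 10 and 7 (13.9% and 9.72%), and 10 and 15 (13.9% and 20.8%) with a median of -0.05, without osimertinib DTP + AZD5153 replicate 3, so that the balance of the latter turned. The promoter region of CBX6, a reader of the Polycomb mark (chr22:38872689-38873190), had 3.36, 2.27 and 2.92 CPM in DMSO libraries, 13.8, 43.7 and 12.4 in those of osimertinib DTP, and 33.9, 22.9 and 89.3 with osimertinib DTP + AZD5153, all treated libraries above DMSO. Its differences from DMSO were 3.02 ± 0.68 and 4.09 ± 0.70 (edgeR adjusted p = 0.0111 and 0.00194). An intronic region of JARID2, a Polycomb accessory subunit (chr6:15284445-15284946), rose by 3.14 ± 0.63 and the promoter region of PHF19, another one (chr9:120877432-120877933), fell by 1.79 ± 0.55 in osimertinib DTP (edgeR adjusted p = 0.00675 and 0.0433, the latter 0.0539 with no filter on low counts).

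Regions of 15 of 17 Trithorax genes and other HOX activators numbered 76, of which 6 were higher and 6 lower in osimertinib DTP (7.89% each, median 0.34) and 10 and 6 in osimertinib DTP + AZD5153 (13.2% and 7.89%). Both pairs of counts became 13 and 8, and 11 and 10, without osimertinib DTP + AZD5153 replicate 3. From each list the called region of smallest p in each direction was named, so opposite directions here follow from that rule. For osimertinib DTP both lay in genes of receptors for retinoic acid, the signal that opens anterior HOX genes in the embryo. Other regions of these receptors are not described. The RARG region (chr12:53217166-53217667) had 20.7, 36.0 and 33.7 CPM in DMSO libraries, 2.58, 4.59 and 3.42 in those of osimertinib DTP, and 3.61, 4.30 and 10.8 with osimertinib DTP + AZD5153, and fell by 3.09 ± 0.61 in osimertinib DTP (edgeR adjusted p = 0.00632). An intronic RARB region (chr3:25509094-25509595) rose by 3.61 ± 0.83 (edgeR adjusted p = 0.0130), and a region of KDM6A, a demethylase that removes the Polycomb mark (chrX:45006846-45007347), fell by 3.43 ± 0.77 (edgeR adjusted p = 0.0112).

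Of 31 other transcripts in or beside the clusters 13 had a region, 53 in all, with 5 higher and 5 lower for osimertinib DTP against DMSO and 6 and 5 for osimertinib DTP + AZD5153 (7 and 8, and 9 and 6, without osimertinib DTP + AZD5153 replicate 3), HOTAIR and HAGLR among those higher. A region in an intron of SKAP1, a gene for an adaptor protein of T cells beside HOXB (chr17:48175620-48176121), had 0.544, 0.620 and 0.704 CPM in DMSO libraries, 4.97, 7.10 and 3.83 in those of osimertinib DTP, and 6.21, 9.07 and 1.93 with osimertinib DTP + AZD5153. It was above DMSO in every treated library and rose by 3.06 ± 0.67 and 3.19 ± 0.67 (edgeR adjusted p = 0.00972 and 0.00477). The lowest value of that list was at a region assigned to SKAP2, a gene for an adaptor protein of leukocyte signalling next to HOXA, with 12, 31.5 and 22.6 CPM in DMSO libraries, 1.63, 1.53 and 2.01 in those of osimertinib DTP, and 2.50, 3.02 and 0 with osimertinib DTP + AZD5153. It differed from DMSO by -3.66 ± 0.80 and -3.51 ± 0.79 (edgeR adjusted p = 0.00997 and 0.00718), with every treated library below every DMSO library.

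Of 129 epithelial marker regions 5 were higher and 13 lower in osimertinib DTP (3.88% and 10.1%, median -0.18) and 10 and 22 in osimertinib DTP + AZD5153 (7.75% and 17.1%). The lowest p was at an EPCAM intron (chr2:47361207-47361708), with -3.68 ± 0.68 in osimertinib DTP (edgeR adjusted p = 0.00490), and a distal region of KRT18, a keratin of simple epithelia (chr12:52977048-52977549), rose by 2.50 ± 0.56 (edgeR adjusted p = 0.0111). Of 33 regions of the blood, endothelial and fibroblast markers 6 were higher and 1 lower in osimertinib DTP (18.2% and 3.03%) and 12 and 4 in osimertinib DTP + AZD5153 (36.4% and 12.1%). Of all regions, 5.58% and 5.13% were higher and lower in the former comparison and 9.05% and 9.01% in the latter. Among them were a PDGFRB region (chr5:150139027-150139528) that rose by 2.50 ± 0.56 and a CDH5 region (chr16:66359279-66359780) that fell by 1.82 ± 0.57 (edgeR adjusted p = 0.0114 and 0.0468, the latter 0.0544 with the replicate number as a block and 0.0601 with no filter on low counts). A PECAM1 region (chr17:64356129-64356630) fell by 2.87 ± 0.65 in osimertinib DTP + AZD5153 (edgeR adjusted p = 0.00711). Epithelial counts were 14 and 34, and 12 and 36, without osimertinib DTP + AZD5153 replicate 3, and those of the other list 12 and 1, and 10 and 5. The 9 promoter regions of the latter list summed to 41.9 to 46.9 CPM in DMSO libraries, 84.6 to 159 CPM with osimertinib and 101 to 223 CPM with AZD5153 after it, so that every treated library was above DMSO, and the 6 genes without a promoter region were named above. The 44 epithelial promoter regions summed to 627 to 838, 620 to 1323 and 582 to 1262 CPM in the same order. Their part in the HOX results was not tested. The osimertinib DTP calls of these named list regions also depended on single libraries. Without DMSO replicate 2, all but EPCAM were lost (edgeR adjusted p from 0.0578 for RARG to 0.257 for CDH5). Of 9 fits that each left out a library, PHF19 was called in 2, CDH5 in 3, TGIF2 in 4, KDM6A in 5, CBX6, RARB and SKAP2 in 6, JARID2, SKAP1, KRT18 and PDGFRB in 7, RARG in 8 and EPCAM in 9. In osimertinib DTP + AZD5153 against osimertinib DTP, 0 regions of these lists were called in either direction.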

How the data were processed

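H3K27ac was measured in 9 libraries of H1975, with a pooled input. Per the labels, the submitters' processing notes name BWA 0.7.17, MACS2 2.2.6, featureCounts 2.0.0 and ChIPseeker 1.29.1 on hg38; thresholds and duplicate handling are not given in the sources used here. The authors deposited raw read counts per region, of which an annotated table holds a part, and 1 peak list per library with a score, the fold enrichment as a ratio over background and −log10 p and q. Of the peak lists, positions were used, as the authors called them.

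Counts of all regions in the 9 libraries were fitted with edgeR 4.0.16 (limma 3.58.1, R 4.3.3): filterByExpr (minimum count 10), TMM, a mean per group, the quasi-likelihood test, and Benjamini-Hochberg adjustment over 157919 regions at 0.05. CPM are TMM-scaled. Alternatives were DESeq2 1.42.0, totals without TMM, a loess offset, no filter, a fit of annotated regions, a fit of the libraries of the compared pair, a replicate block, and leaving out each library. The test was checked on simulated counts with the same spread in every region and library. That check does not cover data with a library that stands apart, as here. Members, gene lists and the rule for named regions were chosen with earlier results of these data known. Among members the rule named the strongest region of each gene and the called ones with the largest changes, otherwise the 2 of smallest p per cluster. From each other list it named the called region of smallest p in each direction and comparison, within a limit per gene and per list. Of 22 regions matching the rule, 14 are described, and the regions of 1 gene and 1 marker gene are not reported here. Promoters and microRNAs came from RefSeq tables of GRCh38.p14. Same-numbered DMSO and osimertinib DTP libraries deviated together (Pearson r 0.334, 0.355 and 0.324), so the numbers were taken to pair them. For osimertinib DTP + AZD5153, r was 0.243, 0.026 and -0.24 with osimertinib DTP, and -0.018, 0.553 and 0.362 with DMSO. The replicate block held all 9 libraries, so for that group it rests on a pairing that these values do not bear out evenly. The labels do not say what a number marks. Groups came from sample titles. The input library entered no fit of counts here and served only to describe the members and the HOTAIR and HAGLR regions. No genome sequence was used for peak regions.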

Additional observations from a re-analysis of the deposited data

How the results depend on the processing

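The counts of 0 lower and 0 higher HOX regions of osimertinib DTP against DMSO became 1 (HOXA3) and 1 (HOXD4 #1) with only the libraries of both groups compared, and ran from 0 to 2 and from 0 to 1 when each library was left out, the highest being without osimertinib DTP + AZD5153 replicate 3. The counts of 0 in the other comparisons did not change under any alternative. The log2 ratio of summed CPM for osimertinib DTP against DMSO, -0.45 in HOXA, 0.24 in HOXC and 0.40 in HOXD, ran from -1.23 to -0.11, from -0.30 to 0.45 and from -0.52 to 0.73 over the libraries left out, the lowest being without osimertinib DTP replicate 2. As the mean of the log2 ratios of same-numbered libraries, a block by replicate number chosen after seeing the data, these were -0.62, 0.12 and 0.13. HOXC9 in osimertinib DTP against DMSO ran from -0.037 to 0.85, and for osimertinib DTP + AZD5153 against osimertinib DTP HOXC13 ran from -0.28 to 0.86 and HOXD-AS2 from -1.62 to 0.42. The cause was not tested.

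With the replicate number as a block, 0 HOX regions were called in any comparison, and for osimertinib DTP against DMSO the edgeR adjusted p was 0.277 for HOXA3, 0.114 for HOXD12 #1, 0.0334 for HOTAIR and 0.0186 for HAGLR. The block ended the call of the CDH5 region in osimertinib DTP (edgeR adjusted p = 0.0544) and of no other region named. Over all regions, 8814 were higher and 8107 lower in osimertinib DTP against DMSO, 12497 and 15406 with DESeq2, 19930 and 18728 with only the libraries of both groups, 22942 and 20489 without osimertinib DTP + AZD5153 replicate 3, and 668 and 482 without DMSO replicate 2. For osimertinib DTP + AZD5153 against DMSO the split of 14286 higher and 14232 lower became 9564 and 15152 for totals without TMM, which moved the median log2 fold change over every region tested from 0.23 to -0.02, and 7762 and 8491 with only the libraries of both groups. HOXB had no members, so its sum has no alternatives. Counts of 10 or fewer reads in a region limit the precision of the weakest members.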
